A study of Populus tremula x Populus alba with 20 samples.

Results

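The genes described here are 150 of the 31823 in the count tables, chosen by their measured read counts: they were higher in short-day apical buds of the poplar line TEML2_2ox than in any other short-day library. Levels are given as CPM, the count divided by the library total and multiplied by 1000000. A gene was eligible if both short-day TEML2_2ox libraries exceeded the other 8 short-day libraries and the TEML2_2ox mean was 5 CPM or more. Its mean over all chilled libraries also had to lie between 0.25 and 4 times the mean over all short-day libraries, and the overexpressor and wild-type ranges had to overlap after chilling. These conditions left 2973 genes, and the 150 with the largest ratio of the TEML2_2ox mean to the mean of the other 8 were kept.

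Hybrid poplar (Populus tremula x Populus alba, INRA clone 717 1B4) was grown under long days at 22 °C, for 6 weeks in one place of the labels and 4 in another. The genotypes were wild type (WT) and 4 lines that overexpress a TEMPRANILLO-like protein: TEML1_1ox and TEML1_2ox with the TEML1ox construct and TEML2_1ox and TEML2_2ox with the TEML2ox construct. All plants received 8 weeks of short days and set buds. Buds of one group were harvested then (SD8), and those of the others after short days had gone on for 2 weeks more in the cold, at 4 °C (CH2), both at ZT7, 7 h after lights on. There were 2 replicates of each genotype at each harvest, hence 20 libraries. Each biological replicate was a pool, of 2 plants in one place of the labels and of 3 buds in another. Neither the promoter of the constructs nor the origin of the lines is given in the sources used here, nor which identifier the overexpressed genes have, so the overexpression itself was not checked.

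In trees of cold climates, short days stop growth at the shoot tip, which then closes into a bud and becomes dormant. A period of cold releases that dormancy, so that warmth can later open the bud. TEMPRANILLO proteins are DNA-binding factors of the RAV family, known in Arabidopsis as repressors of flowering that act on the florigen gene FT and on gibberellin synthesis. The files pair no identifier with a gene name, so the members are given by identifier and no function is attached to them. For the same reason, no marker genes of bud tissues were used here.

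The libraries held 35779227 to 39352645 counts. Both short-day TEML2_2ox libraries stood apart from the other 8: they were the highest 2 of 10 at 6207 genes (19.5% of all genes), whereas the same count for the other lines at SD8 ran from 383 genes in TEML2_1ox to 2271 in WT. They were the lowest 2 at 2159 genes (6.78%), against 413 in TEML1_1ox to 1616 in TEML2_1ox. These counts use CPM without the TMM scaling of the tests. The TMM factors of the TEML2_2ox libraries were the highest at SD8, 1.05 and 1.04 against 0.963 to 1.02 in the other 8. The TEML2_2ox libraries were also the deepest at SD8, with 38822907 and 38972077 counts, and had the most genes at 1 CPM or more, 24111 and 24107 against 23429 to 23938 in the other 8. The part of depth in the results was not tested. In these bulk samples, more cells of a type and more RNA per cell cannot be told apart.

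At SD8 the members stood on average several times higher in TEML2_2ox than elsewhere, which is the choice itself and is given as a description. Their median level was 15.6 and 14.7 CPM in the TEML2_2ox replicates. It was 3.15 and 4.56 CPM in WT, 8.05 and 5.31 in TEML1_1ox, 3.64 and 3.58 in TEML1_2ox, and 3.96 and 3.90 in the sister line TEML2_1ox. The TEML2_2ox replicates were close to each other, with a median difference of 1.07-fold and at most 1.41-fold. The ratio of TEML2_2ox to the other 8 ran from 2.63 to 11.4, with a median of 3.03. Together the members took 0.423% and 0.407% of the counts of the TEML2_2ox libraries, against 0.0790% to 0.203% in the other 8. In the fit over all genes, all 150 were called higher in TEML2_2ox than in the mean of the other 4 lines, where 14.2% of all genes tested were. The rule fixed that count and nothing is read from it.

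**Figure D1:**
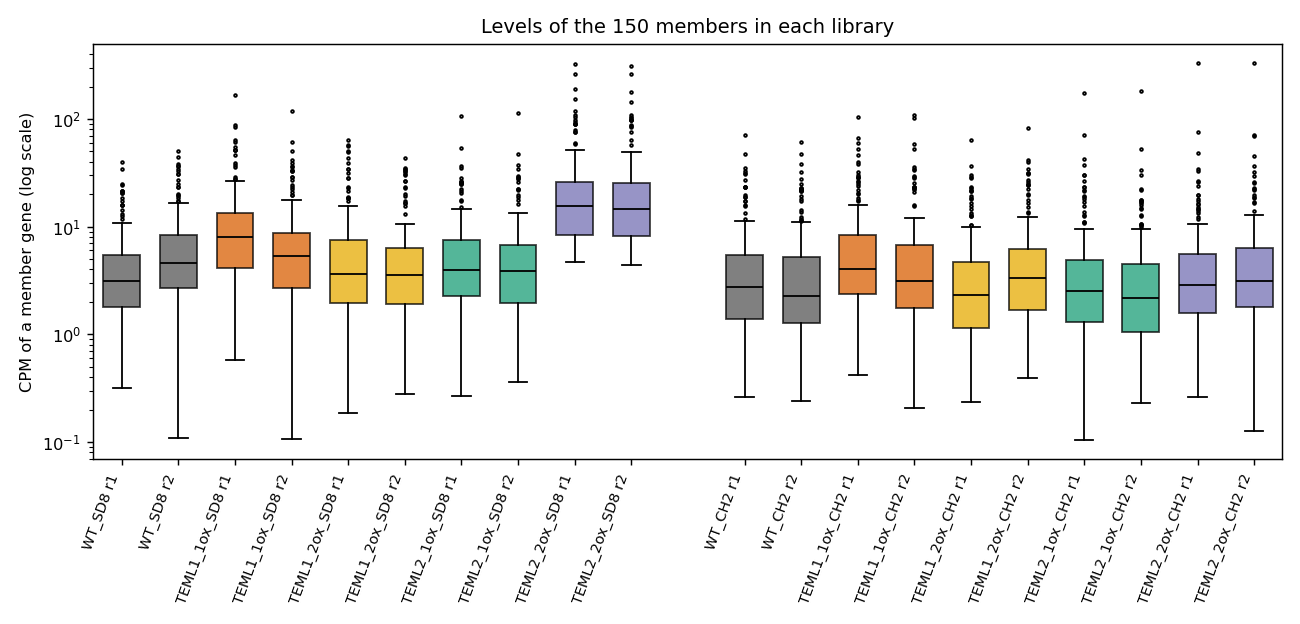
CPM of the 150 members in each of the 20 libraries on a log axis, as boxes of the quartiles with the median line, whiskers to 1.5 interquartile ranges and single genes beyond. Values of 0, 1 in a TEML2_1ox library and 1 in a WT library at SD8, are not drawn. The TEML2_2ox boxes stand highest at SD8, with medians of 15.6 and 14.7 CPM, followed by TEML1_1ox replicate 1 at 8.05, and at CH2 all medians lie between 2.17 and 4.07.

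The member with the largest ratio was PtXaAlbH.19G083300.v5.1. At SD8 it stood at 7.78 and 8.06 CPM in TEML2_2ox, 1.14 and 0.607 in TEML1_1ox, 0.401 and 1.26 in TEML1_2ox, 0.399 and 1.12 in TEML2_1ox, and 0.551 and 0.108 in WT. The 8 other libraries were thus near the lower end of what was counted. PtXaAlbH.18G065500.v5.1 came next, at 18.4 and 18.3 CPM in TEML2_2ox. It was at 3.60 and 2.08 in TEML1_1ox, 1.87 and 1.84 in TEML1_2ox, 0.984 and 1.06 in TEML2_1ox, and 0.656 and 1.08 in WT, a ratio of 11.1. The most abundant member was PtXaAlbH.11G106200.v5.1, at 321 and 309 CPM in TEML2_2ox, 167 and 118 in TEML1_1ox, 63.1 and 33.6 in TEML1_2ox, 54.2 and 47.1 in TEML2_1ox, and 20.6 and 50.5 in WT. TEML1_1ox was the second highest line for it, above the other 6 libraries and below TEML2_2ox.

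The limit of 150 cut through a continuous range. The last members inside it, PtXaAlbH.07G050400.v5.1 and PtXaAlbH.14G021400.v5.1, had ratios of 2.64 and 2.63, from 17.2 and 7.96 CPM in TEML2_2ox. The first outside, PtXaAlbH.12G042200.v5.1 and PtXaAlbH.05G197500.v5.1, had ratios of 2.62 and 2.62, from 14.1 and 12.0 CPM. The 2823 eligible genes left out had a median ratio of 1.29. The members were the less abundant part of the eligible genes: 52 lay at 5 to 10 CPM in TEML2_2ox at SD8 (34.7%), 81 at 10 to 50 CPM (54.0%) and 17 above 50 CPM (11.3%). Among the 2823 the shares were 13.8%, 58.6% and 27.7%.

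After chilling the difference was no longer seen for most members. Their median level in TEML2_2ox was 2.85 and 3.14 CPM, within the 2.17 to 4.07 CPM of the other 8 libraries. The ratio of TEML2_2ox to the other 8 had a median of 1.04, and 135 of the 150 (90.0%) lay within 1.5-fold of 1, where 98.8% of all genes of 5 CPM or more did. Ratios of 1.5 or more were found at 7 members (4.67%, against 0.426% of those genes). At 8 members TEML2_2ox was 1.5 times lower or more (5.33%, against 0.750%), so both tails were wider. The members were also less abundant at CH2, with a median of 2.71 CPM in the other 8 against 20.7 for those genes. The part of abundance in the wider spread was not tested. The rule used the CH2 values in the mean over all libraries and in the overlap of all overexpressors with WT, but not to set TEML2_2ox against the other overexpressors, and that difference was tested. Against the mean of the other 3 overexpressor lines, 2 of the 150 members passed an adjusted p of 0.05 in edgeR's quasi-likelihood test. Both were higher in TEML2_2ox, where 0.0156% of the 25696 genes tested were called higher and 0.0311% in either direction. The members' median log2 fold change was 0.04, against 0.00 over all genes, and 85 members were positive (56.7%, against 50.1% of all genes). With single libraries left out, the median ran from -0.04 without TEML2_2ox replicate 2 to 0.13 without TEML1_2ox replicate 2.

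**Figure D2:**
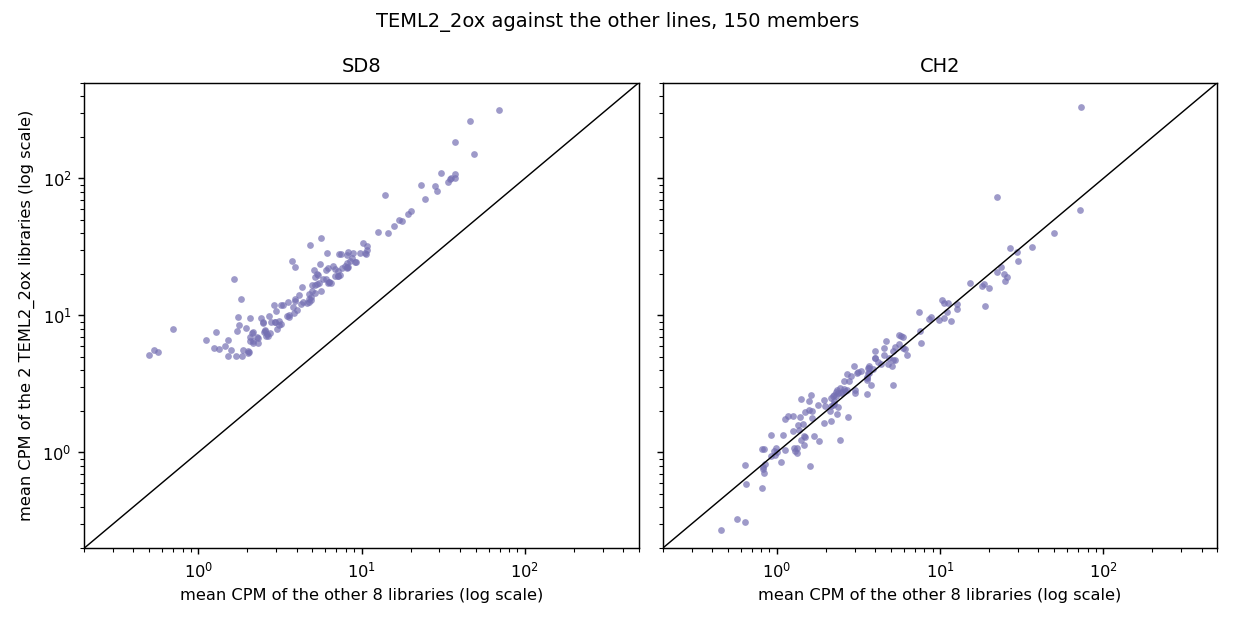
Mean CPM of the 2 TEML2_2ox libraries against the mean of the other 8, for each of the 150 members on log axes, at SD8 (left) and CH2 (right); the line marks equal levels. At SD8 every member lies above the line because it was chosen so, with a median ratio of 3.03. At CH2 the points gather at the line, with a median ratio of 1.04, and the 2 that stay farthest above it are PtXaAlbH.08G098800.v5.1 at 4.57 and PtXaAlbH.05G195400.v5.1 at 3.27.

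The first of these 2 members, PtXaAlbH.08G098800.v5.1, was high in both TEML2ox lines and at both harvests. At SD8 it was at 263 and 261 CPM in TEML2_2ox and 107 and 115 in TEML2_1ox. TEML1_1ox held 22.1 and 23.2 CPM, TEML1_2ox 18.3 and 20.2, and WT 39.4 and 26.9. At CH2 it was at 332 and 331 CPM in TEML2_2ox, 174 and 181 in TEML2_1ox, 30.2 and 29.3 in TEML1_1ox, 36.5 and 34.0 in TEML1_2ox, and 47.3 and 47.6 in WT. The order TEML2_2ox, TEML2_1ox, WT and then the TEML1ox lines held at both harvests with no overlap between the constructs. At CH2 TEML2_2ox exceeded the mean of the other 3 overexpressor lines by 2.52 ± 0.04 on the log2 scale (SE, edgeR adjusted p = 1.39e-10). Of 19 alternatives, 18 kept this call and 1 did not: when those 3 lines were pooled as 1 group, which then held libraries from 29.3 to 181 CPM, the difference was 2.01 (edgeR adjusted p = 0.994, the highest of the 19). For this member the description "short-day TEML2_2ox buds only" does not hold.

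The other, PtXaAlbH.05G195400.v5.1, was high in TEML2_2ox at both harvests and nearly level everywhere else. At SD8 it was at 94.4 and 103 CPM in TEML2_2ox, against 33.4 to 36.4 CPM in the other 8 libraries. At CH2 it was at 75.05 and 70.2 CPM, against 19.6 to 23.4 CPM. Unlike PtXaAlbH.08G098800.v5.1, it was not raised in the sister line, which had 35.0 and 34.1 CPM at SD8 and 23.3 and 22.6 at CH2. Its difference from the other 3 overexpressor lines at CH2 was 1.69 ± 0.07 on the log2 scale (SE, edgeR adjusted p = 8.31e-07), and it passed under all 19 alternatives tried for this comparison. The line-specific difference of this member thus also extended past the short-day harvest.

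Against the sister line alone at CH2, the same 2 members passed, both higher in TEML2_2ox, where 0.0195% of all genes were called higher, 0.0467% lower and 0.0662% in either direction. On the log2 scale the difference was 1.64 ± 0.09 (SE) for PtXaAlbH.05G195400.v5.1 (edgeR adjusted p = 5.60e-05). For PtXaAlbH.08G098800.v5.1 it was 0.88 ± 0.06 (edgeR adjusted p = 0.000131). This comparison uses the same TEML2_2ox libraries as the one before. The other 148 did not pass, although 120 of the 150 were positive (80.0%, against 48.9% of all genes) with a median log2 fold change of 0.33. That median was 0.22 without TEML2_2ox replicate 2 and 0.48 without TEML2_1ox replicate 1.

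**Figure D3:**
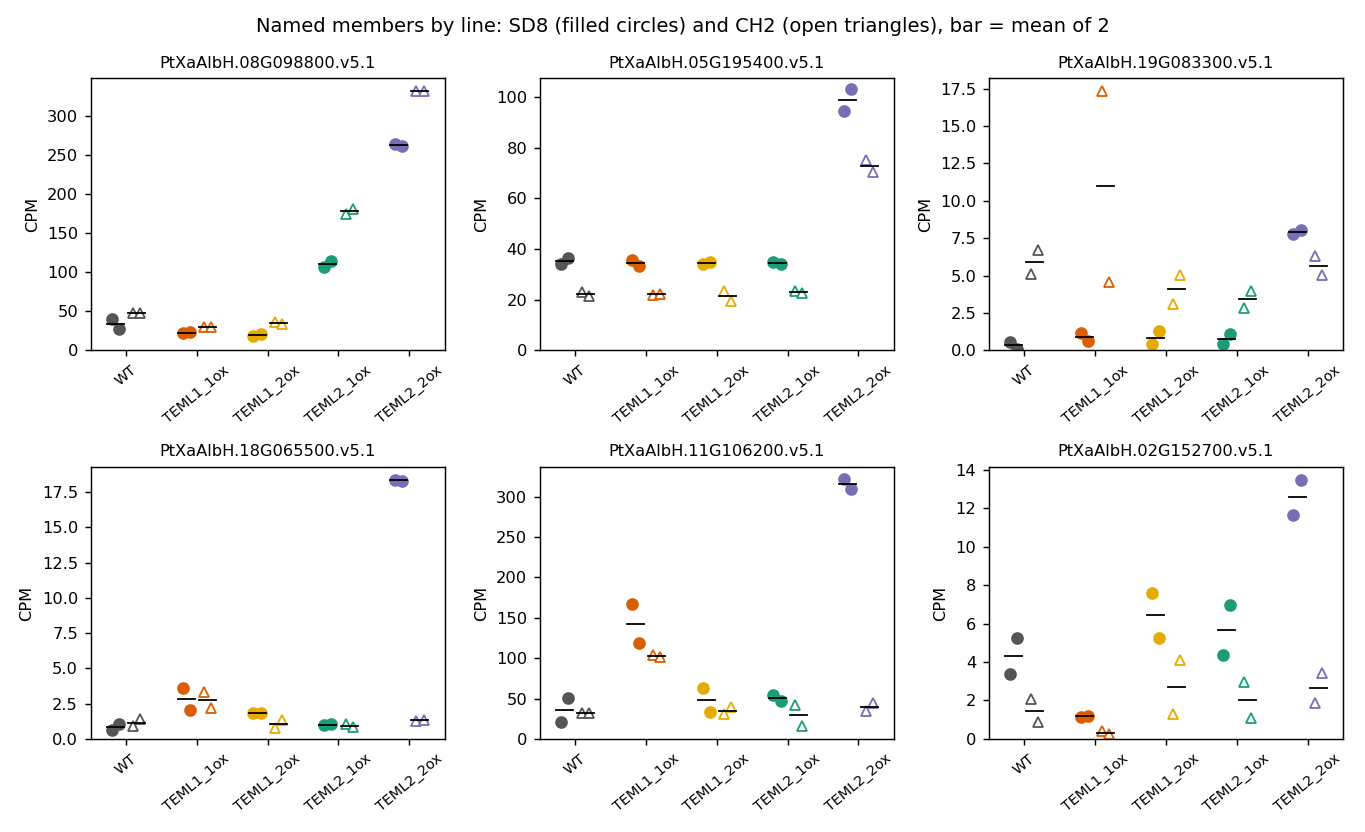
CPM of 6 named members in each library by line, at SD8 (filled circles) and CH2 (open triangles), with a bar at the mean of the 2 replicates. PtXaAlbH.08G098800.v5.1 is high in both TEML2ox lines and PtXaAlbH.05G195400.v5.1 in TEML2_2ox alone at both harvests, PtXaAlbH.19G083300.v5.1 and PtXaAlbH.18G065500.v5.1 in TEML2_2ox at SD8, and PtXaAlbH.11G106200.v5.1 also in TEML1_1ox. PtXaAlbH.02G152700.v5.1 is lowest in TEML1_1ox.

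The next question was whether the sister line or the other overexpressors took part at SD8, apart from TEML2_2ox. TEML2_1ox stood with the low lines: the mean of its replicates' medians was 3.93 ± 0.05 CPM, against 3.85 ± 0.99 in WT and 3.61 ± 0.04 in TEML1_2ox (SD, n = 2 each). Against the mean of the 2 TEML1ox lines, 1 member passed as higher in TEML2_1ox, where 0.0334% of the 26947 genes tested were called higher, 0.00371% lower and 0.0371% in either direction. It was again PtXaAlbH.08G098800.v5.1, higher by 2.44 ± 0.12 on the log2 scale (SE, edgeR adjusted p = 1.33e-05). The members' median log2 fold change was -0.27, and 32 of the 150 were positive (21.3%, against 50.6% of all genes). The median was -0.14 without TEML1_1ox replicate 1. The count of members called depended on single libraries. DESeq2 gave 6, of which 4 were lower in TEML2_1ox. Over all genes, the alternatives that keep all libraries called 3 to 224.

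In the comparison of the 3 other overexpressor lines together with WT, edgeR called 0 of the 150 members. Of all genes, 0.0816% were called higher, 0.115% lower and 0.197% in either direction. With so few genes called, a count of 0 is near the share of all genes and does not show that the members were alike. At an unadjusted p under 0.05 there were 24 of the 150 members and 3306 of 26947 genes. DESeq2 called 4 members and limma-voom 0, while over all genes the alternatives that keep all libraries called 2 to 419. The median log2 fold change of the members was 0.26 and 126 were positive (84.0%, against 49.4% of all genes). The 3 lines were not alike: the mean of the replicates' medians was 6.68 CPM in TEML1_1ox, 3.61 in TEML1_2ox and 3.93 in TEML2_1ox, against 3.85 in WT. The positive sign is therefore not read as shared by the overexpressors. The median log2 fold change also depended on the WT pair, which differed at these genes. WT replicate 2 was above replicate 1 at 132 of the 150 members, and the median ratio of replicate 1 to replicate 2 was 0.623. Without WT replicate 1 the median was 0.03 and without replicate 2 it was 0.65. The count of members called also depended on single libraries.

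TEML1_1ox came second to TEML2_2ox in most members at SD8. Among the 4 lines other than TEML2_2ox it had the highest mean at 136 of the 150 members (90.7%). For the 2823 eligible genes outside the limit this share was 56.5%, and for all 19731 genes of 5 CPM or more in TEML2_2ox at SD8 it was 25.7%. Replicate 1 of TEML1_1ox was above replicate 2 at 146 members, by a median ratio of 1.47. Replicate 1 was the highest of the 8 libraries other than TEML2_2ox at 131 members, and it also had the most genes at 1 CPM or more among those 8, 23938. Both TEML1_1ox libraries lay above the other 6 at 61 members, where 6.04% of all genes did.

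This rank of TEML1_1ox was noticed in these data, and a comparison was then run on the same libraries. The rule had also used the SD8 mean and highest value of the 8 libraries other than TEML2_2ox. The counts and p-values are therefore a description and no independent support for the rank. Against the mean of TEML1_2ox, TEML2_1ox and WT at SD8, 8 members passed as higher in TEML1_1ox, where 0.263% of all genes were called higher, and 3 as lower, where 0.0520% were (0.315% in either direction). The median log2 fold change of the 150 was 0.73, against 0.00 over all genes, and 144 were positive (96.0%, against 49.9%). The number called depended on single libraries, and some fits with a library left out called no member. DESeq2 called 67 members. Calls over all genes moved as well, from 2 to 708 under the alternatives that keep all libraries. The median kept its sign in each fit with a library left out, from 0.46 without TEML1_1ox replicate 1 to 0.99 without replicate 2.

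Among the members called, PtXaAlbH.09G050600.v5.1 had the largest excess in TEML1_1ox at SD8. It was at 5.74 and 5.06 CPM there, 1.74 and 2.04 in TEML1_2ox, 1.76 and 2.01 in TEML2_1ox, and 0.604 and 1.57 in WT, beside 7.65 and 7.85 in TEML2_2ox. The difference was 1.77 ± 0.24 on the log2 scale (SE, edgeR adjusted p = 0.0245). PtXaAlbH.11G106200.v5.1, whose levels are given above, was higher by 1.67 ± 0.27 on that scale (edgeR adjusted p = 0.0369). Neither passed without TEML1_1ox replicate 1, either TEML2_1ox replicate or either TEML2_2ox replicate, and the second also not without TEML1_1ox replicate 2.

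A pair of members went the other way. PtXaAlbH.02G152700.v5.1 was at 1.16 and 1.19 CPM in TEML1_1ox at SD8, the lowest of all lines, against 7.59 and 5.25 in TEML1_2ox, 4.36 and 6.98 in TEML2_1ox, 3.39 and 5.27 in WT and 11.7 and 13.5 in TEML2_2ox. PtXaAlbH.02G152800.v5.1, the next identifier in the table, was at 0.926 and 0.818 CPM in TEML1_1ox, 5.08 and 3.44 in TEML1_2ox, 2.31 and 3.63 in TEML2_1ox, 2.39 and 3.84 in WT, and 9.505 and 8.52 in TEML2_2ox. The log2 differences were -2.21 ± 0.28 (SE, edgeR adjusted p = 0.0227) and -1.97 ± 0.30 (edgeR adjusted p = 0.0360). In both, TEML1_1ox was also lowest after chilling, at 0.420 and 0.231 CPM for PtXaAlbH.02G152700.v5.1 and 0.420 and 0.205 for PtXaAlbH.02G152800.v5.1. Neither SD8 call held without either TEML1_1ox replicate, TEML2_1ox replicate 2 or either TEML2_2ox replicate.

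**Figure D4:**
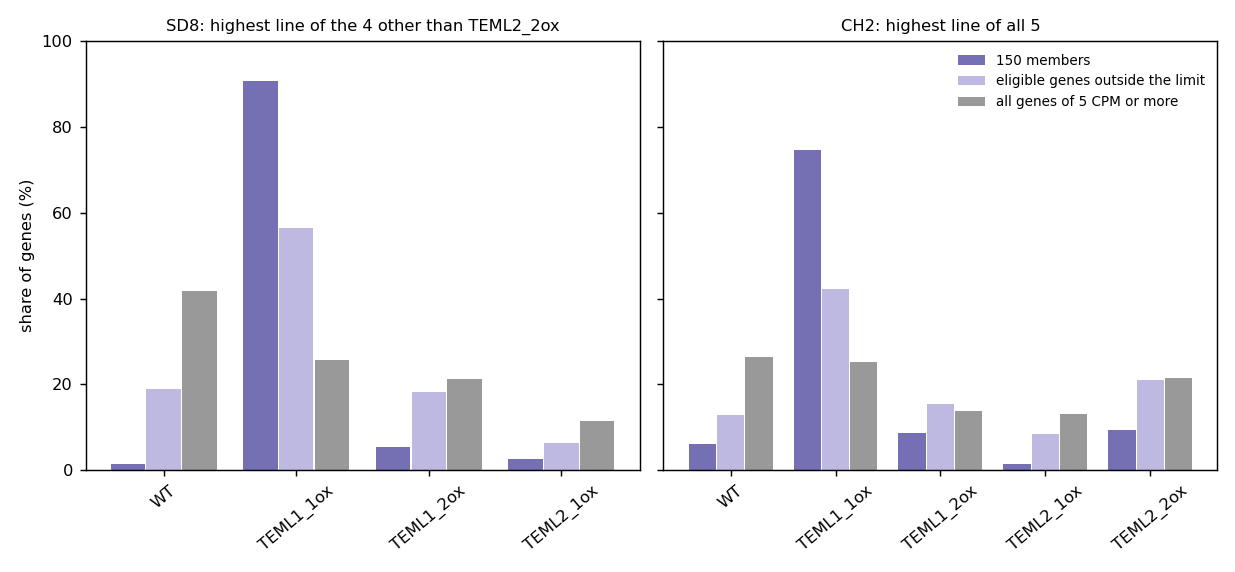
Share of genes (%) at which each line had the highest mean CPM, at SD8 among the 4 lines other than TEML2_2ox (left) and at CH2 among all 5 (right). Bars are the 150 members, the 2823 eligible genes outside the limit and the 19731 genes of 5 CPM or more in TEML2_2ox at SD8. TEML1_1ox is the highest at 90.7% of the members at SD8 and at 74.7% at CH2.

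After chilling TEML1_1ox was the line with the highest members. It had the highest mean of all 5 lines at 112 of the 150 (74.7%), against 42.2% of the 2823 eligible genes outside the limit and 25.3% of all genes of 5 CPM or more. TEML2_2ox had it at 14 members, TEML1_2ox at 13, WT at 9 and TEML2_1ox at 2. Both TEML1_1ox libraries exceeded the other 8 at 39 members, where 5.42% of all genes did, and both TEML2_2ox libraries at 2, where 3.04% did. The TEML1_1ox replicates differed here too, with medians of 4.07 and 3.10 CPM, and TEML1_2ox replicate 2 had a median of 3.32.

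In the comparison of TEML1_1ox with the mean of the other 4 lines at CH2, also chosen after its values were seen, 16 members were higher, where 1.35% of all genes were. The 2 that were lower, where 0.891% of all genes were (2.24% in either direction), were PtXaAlbH.08G098800.v5.1 and PtXaAlbH.05G195400.v5.1, and the mean they were compared with holds TEML2_2ox, where both were high. For PtXaAlbH.05G195400.v5.1 the TEML1_1ox libraries, at 21.9 and 22.3 CPM, lay within the 19.6 to 23.4 CPM of the libraries other than TEML2_2ox. The median log2 fold change was 0.54, against 0.01 over all genes, and 137 members were positive (91.3%, against 52.0%). PtXaAlbH.11G106200.v5.1 was at 104 and 102 CPM in TEML1_1ox at CH2, against 16.0 to 44.8 CPM in the other 8 libraries, higher by 1.60 ± 0.22 on the log2 scale (SE, edgeR adjusted p = 0.0156). PtXaAlbH.11G105900.v5.1 was at 59.7 and 52.1 CPM against 10.00 to 30.8, higher by 1.33 ± 0.25 (edgeR adjusted p = 0.0294). TEML1_1ox was the highest line for both, with no overlap. The 18 calls depended on single libraries, with fewer members called in some fits with a library left out and more in others. Calls over all genes moved as well, from 14 to 1237 under the alternatives that keep all libraries. The medians with a library left out lay between 0.40 and 0.64. PtXaAlbH.11G105900.v5.1 did not pass in 9 of 19 alternatives and PtXaAlbH.11G106200.v5.1 in 3.

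From SD8 to CH2 the median difference of the members was more negative in TEML2_2ox than in the other lines. The rule took genes high in TEML2_2ox and lower in the other 8 short-day libraries, which builds in this contrast. It is given with no test, and no chilling response particular to TEML2_2ox is read from it. The median log2 change from SD8 to CH2 was -2.05 in TEML2_2ox, -0.51 in TEML2_1ox, -0.48 in TEML1_1ox, -0.32 in WT and -0.26 in TEML1_2ox, while over all genes it lay between -0.06 and -0.04 in the 5 lines. Those changes came from the TMM-scaled fit, in which 51.4% to 52.4% of all genes were below 0. The counts that follow are in CPM without that scaling, so the 2 measures are not alike. Both CH2 libraries were below both SD8 libraries at 146 members in TEML2_2ox, where 52.4% of all genes were. The same count was 79 in WT, where 50.0% of all genes were, 77 in TEML1_2ox (46.7%), 96 in TEML2_1ox (47.3%) and 96 in TEML1_1ox (49.0%). Both CH2 libraries were above both SD8 libraries at 3 members in TEML2_2ox, where 24.9% of all genes were, 29 in WT (24.3%), 22 in TEML1_2ox (25.0%), 22 in TEML2_1ox (25.7%) and 10 in TEML1_1ox (24.7%). In WT and TEML1_2ox the share of members that were lower in CPM, 52.7% and 51.3%, was near that of all genes. Those all-gene shares are over all 31823 genes, expressed or not. In the TMM-scaled fit the shares of members below 0 were higher, 60.7% in WT and 62.7% in TEML1_2ox, against 52.4% and 52.1% of the genes fitted. Each harvest came as its own table, and chilling, 2 more weeks and any difference in preparation cannot be told apart.

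**Figure D5:**
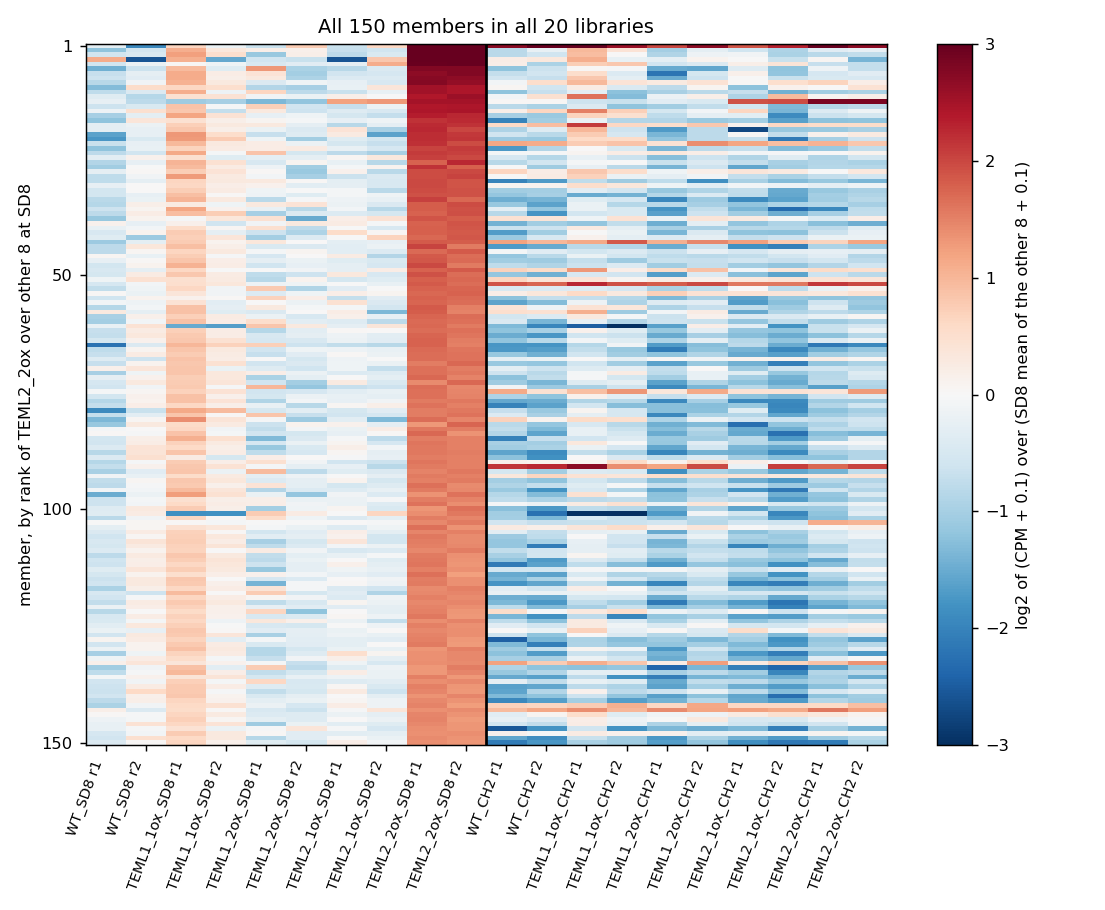
Each row is 1 of the 150 members, ranked by the ratio that chose it, and each column a library; colour is the log2 ratio of CPM + 0.1 to the SD8 mean of the other 8 libraries + 0.1, from blue (lower) to red (higher). The TEML2_2ox columns at SD8 are red throughout by choice, TEML1_1ox replicate 1 is pale red in most rows, and at CH2 most rows are blue or pale. Exceptions at CH2 include rank 1, red in all lines, rank 13, red in both TEML2ox lines, and rank 91, red in most libraries.

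The classes here also use CPM without TMM scaling. In the mean of the 8 other libraries, 45 members (30.0%, against 22.6% of all genes of 5 CPM or more) were at 0.5 or less of their SD8 level, 99 (66.0%, against 73.0%) between 0.5 and 2 times and 6 (4.00%, against 4.43%) at 2 times or more. In TEML2_2ox 140 (93.3%, against 25.6%) were at 0.5 or less, 10 (6.67%, against 69.3%) between and 0 at 2 times or more, a split that the choice of the members bears on.

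The members with the highest CH2 to SD8 ratio in the other lines were PtXaAlbH.19G083300.v5.1 and PtXaAlbH.10G167900.v5.1. PtXaAlbH.19G083300.v5.1, at 1.26 CPM or less in the other 8 libraries at SD8, was at 17.3 and 4.59 CPM in TEML1_1ox, 3.12 and 5.03 in TEML1_2ox, 2.85 and 3.94 in TEML2_1ox and 5.103 and 6.72 in WT at CH2. TEML2_2ox went from 7.78 and 8.06 CPM to 6.28 and 5.01. In CPM, every chilled library of the other 4 lines was above every short-day one, and both chilled TEML2_2ox libraries were below both short-day ones. With TMM scaling the log2 change of this member in TEML2_2ox was only -0.15. PtXaAlbH.10G167900.v5.1 stood 3.74 times higher at CH2 in the mean of the other 8, whose libraries held 4.36 to 13.8 CPM at SD8 and 6.94 to 52.1 CPM at CH2. In TEML2_2ox it was at 23.4 and 22.8 CPM at SD8 and at 26.1 and 32.3 CPM at CH2.

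The lowest CH2 to SD8 ratios in the other lines, 0.317 and 0.326, were those of PtXaAlbH.17G007900.v5.1 and PtXaAlbH.14G021400.v5.1. The first went from 1.40 to 2.73 CPM in the other 8 libraries at SD8 to 0.263 to 1.29 CPM at CH2, and in TEML2_2ox from 5.46 and 5.18 CPM to 0.938 and 0.686. The second went from 2.07 to 4.82 CPM to 0.610 to 1.496 CPM, and in TEML2_2ox from 8.14 and 7.77 CPM to 0.625 and 1.52. In both, all chilled libraries were below all short-day ones.

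Some members followed each other in the order of identifiers, with 8 runs that held 17 members, 7 runs of 2 and 1 of 3. The same count was not made over all genes, so no excess is read from these runs. The pair PtXaAlbH.02G152700.v5.1 and PtXaAlbH.02G152800.v5.1, low in TEML1_1ox at both harvests, was among these runs. Only directly neighbouring rows were counted. PtXaAlbH.11G105900.v5.1 and PtXaAlbH.11G106200.v5.1 were close in number to the run of PtXaAlbH.11G105300.v5.1 and PtXaAlbH.11G105400.v5.1 but outside it. Neighbouring genes can be near-identical copies that share reads, and how such reads were counted is not given in the sources used here. Members of a run, or close in number, may thus not be independent.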

How the data were processed

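Polyadenylated RNA was sequenced from 20 libraries made with a stranded kit, per the labels' protocols. The authors deposited raw counts of reads for each gene, with SD8 and CH2 in separate tables, per the file headers. The submitters' processing notes name HISAT2. The sources used here do not give the counting program, genome build, strand setting or filters. The SD8 column of WT replicate 1 has a surplus digit in its name.

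CPM for the rule and for all levels is the count over the column total. Tests used edgeR 4.0.16 in R 4.3.3 on the deposited counts: filterByExpr, TMM scaling and the quasi-likelihood F test in a fit of each harvest, with each line and WT as a group of 2 libraries, and Benjamini-Hochberg adjustment over all genes tested (25696 at CH2, 26947 at SD8). All 150 members passed the filter in both fits. At SD8 the TEML2_2ox libraries alone could carry them through it. Spread came from within lines, so p-values do not cover differences between transformation events. SE is the absolute log2 fold change over the square root of F. Changes between harvests came from 1 fit of the 20 libraries in 10 groups. Replicate pairs differed by more than sampling noise, with a chi-square per degree of freedom of 6.75 to 29.6. The test was tried on simulated counts, and nothing is read from that trial here.

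The members, lists and comparisons were chosen with earlier results of these data known. Both comparisons of TEML1_1ox were added after its values were seen. Named members are, per tested comparison, up to 2 higher and 2 lower with the largest log2 fold change past the threshold. For the rule they are the 2 with the largest ratio, the 2 most abundant and the 2 on each side of the limit, and for chilling the 2 highest and 2 lowest ratios in the other 8 libraries. Alternatives were RLE scaling, DESeq2 1.42.0, limma-voom (limma 3.58.1), no low-count filter, at least 50 counts in 2 libraries, the replicate number as a block, all 20 libraries, an adjusted p of 0.01, lines pooled and each library left out.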

Additional observations from a re-analysis of the deposited data

Results flagged for a closer look

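In CPM, PtXaAlbH.19G083300.v5.1 moved in opposite directions between the harvests in different lines. In TEML2_2ox the chilled mean was 0.713 times the short-day mean, with both chilled libraries lower. In WT, TEML1_1ox, TEML1_2ox and TEML2_1ox both chilled libraries were higher than both short-day ones. The fall in TEML2_2ox depended on the scaling. In the TMM-scaled fit of all 20 libraries its log2 change was only -0.15, against 2.42 in TEML2_1ox to 4.44 in WT. The difference between lines was not tested, since the short-day contrast of TEML2_2ox chose the gene.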

How the results depend on the processing

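Of the 150 members, 146 were kept with TMM-scaled totals, 98 with a minimum of 10 CPM, a count that moved because it drops 52 members under that level, and 150 with 300 genes kept. With DESeq2 the members called were 4 for the other overexpressors against WT at SD8 (0 in edgeR), 6 for TEML2_1ox against the TEML1ox lines (1 in edgeR), and 67 at SD8 and 35 at CH2 for TEML1_1ox (11 and 18 in edgeR). For TEML1_1ox at SD8 limma-voom gave 7. Of the other settings, the fit of all 20 libraries gave 24 at SD8 and 9 at CH2, an adjusted p of 0.01 gave 0 and 1, and lines pooled gave 1 and 1. Lines pooled also left 1 of 2 members for TEML2_2ox against the other 3 overexpressor lines at CH2. The cause of these moves was not tested. With the replicate number as a block, TEML1_1ox had 5 members at SD8 and 7 at CH2, and the counts of the other 4 comparisons did not move (2, 2, 0 and 1). The labels do not say that a number marks a shared batch, and same-numbered libraries deviated together at r of -0.153 to 0.187 across genes, so they were not taken as pairs. With each library left out, the members called were 2 to 2 (TEML2_2ox against the other overexpressor lines, CH2), 2 to 4 (against TEML2_1ox, CH2), 0 to 6 (other overexpressors against WT, SD8), 1 to 7 (TEML2_1ox against TEML1ox lines, SD8), 0 to 82 (TEML1_1ox, SD8) and 2 to 39 (TEML1_1ox, CH2). Over all genes, the calls in these 6 comparisons were 8, 17, 53, 10, 85 and 575, and under the alternatives that keep all libraries they ran from 5 to 62, 12 to 81, 2 to 419, 3 to 224, 2 to 708 and 14 to 1237. The 13 results on named members were each looked at under 19 alternatives, 247 readings in all, many of them from the same fits. All kept their direction, and 53 missed the threshold. The adjusted p of 0.01 used the main fit, so the direction could not change there. With 2 libraries per line the precision is limited, and the smallest difference that could be detected was not estimated.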
